A study of Mus musculus with 21 samples.

Results

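The collagen chain genes are the genes whose transcripts encode the alpha chains of the collagens, and they were taken as every row of the count table whose symbol reads Col, a number, the letter a and a number. This gave 44 of the 40853 genes of the table. The 44 genes were divided by collagen class into 11 fibrillar chains (types I, II, III, V, XI, XXIV and XXVII), 8 chains of the basement membrane (types IV, XV and XVIII) and 25 other chains (among them types VI, VIII, XII, XIV and XXII). RNA came from the medial belly of the gastrocnemius, a calf muscle, of female C57BL/6NJ mice that were 10 weeks old at the start, with 7 mice in each of 3 groups and 1 poly(A) RNA-seq library per mouse. Mice of the Inactive group stayed in standard housing for 6 weeks. Mice of the Active group ran on a treadmill for 6 weeks, on 5 days a week. Sessions of up to 40 min comprised a slower warm-up and running at about 70% of maximal speed, which was lengthened to its full time over the first 3 weeks. Mice of the Activity Reduction group trained in this way for 4 weeks and were then inactive for 2 weeks. All mice, Inactive ones included, ran a maximal running test as the last exercise bout, 48 to 72 h before tissue collection, and were fasted for some hours before it. The whole medial belly was homogenized, so each library held RNA of muscle fibres, connective tissue, vessels and nerve together.

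Collagens are secreted proteins in which alpha chains wind around each other in a triple helix, and that helix needs a glycine at every repeat of the sequence Gly-X-Y. Fibrillar collagens assemble into the fibrils that carry tension in the endomysium and perimysium of muscle and in tendon, the network collagen of type IV is the scaffold of the basement membrane around each muscle fibre and capillary, and type VI forms beaded filaments that link the basement membrane to the matrix outside it. In skeletal muscle most collagen transcripts are made by fibroblasts and related interstitial cells rather than by the muscle fibres.

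The coding sequences differ between the classes in how long the Gly-X-Y repeat runs. In the canonical GENCODE transcripts (GRCm39), the longest run without an interruption held 337 to 344 repeats in the 9 fibrillar genes of types I, II, III, V and XI, 216 repeats in Col24a1 and 217 in Col27a1. In the 6 type IV genes it held 39 to 66 repeats, and the repeats were spread over 23 to 27 stretches. It held 87 repeats in Col6a1 and Col6a2 and 30 in Col15a1 and Col18a1. The first 30 codons of the longest run are printed for 1 gene of each kind that the results turn on, read 5′ to 3′ on the coding strand, with the glycine codons in capitals. All 4 are exonic coding sequence: Col1a1 lies on chromosome 11 (94827050-94843868, plus strand), Col24a1 on chromosome 3 (144998233-145257766, plus strand), Col4a1 on chromosome 8 (11248423-11362826, minus strand) and Col6a1 on chromosome 10 (76543440-76562283, minus strand).
Col1a1: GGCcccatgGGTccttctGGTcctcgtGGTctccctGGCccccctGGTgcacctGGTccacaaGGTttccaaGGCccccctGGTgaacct
Col24a1: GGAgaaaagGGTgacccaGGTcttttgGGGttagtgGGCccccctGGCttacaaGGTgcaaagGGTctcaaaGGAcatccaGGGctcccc
Col4a1: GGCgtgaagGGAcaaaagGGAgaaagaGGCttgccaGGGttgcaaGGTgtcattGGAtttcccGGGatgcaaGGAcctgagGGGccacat
Col6a1: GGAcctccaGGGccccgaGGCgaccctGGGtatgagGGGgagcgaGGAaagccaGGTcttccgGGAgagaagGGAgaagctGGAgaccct

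Between 38482455 and 59785132 reads were counted on genes per library, and every Active library held fewer than every Inactive library. Transcripts of the muscle fibre were abundant in all libraries, with Myh4, the fast myosin heavy chain, between 66551 and 99320 CPM (the count scaled to a common library size, here with edgeR's TMM factors). The libraries also fell into a set of 13 with 71.1 to 161 CPM of Alb, the transcript of liver albumin, and a set of 8 with 365 to 1155 CPM (both by library total). The 8 were Inactive replicate 1, Active replicates 1 to 5 and Activity Reduction replicates 1 and 2, which were also the libraries with the lowest animal numbers in the labels. Training group and this division overlap in part, so the tests of the collagen genes are also given with the division in the model and within the 13 libraries with Alb under 250 CPM, of which 6 were Inactive, 2 Active and 5 Activity Reduction.

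Together the 44 genes took 0.0340% to 0.0761% of the counts of a library. The 12 genes with the most counts held 83.0% of the collagen counts, and the first 4 of them held 43.1%. Per kb of transcript, 5 genes stood close together at the top, with means over the 21 libraries of 9.67 CPM per kb (SD 2.71) for Col3a1, 9.37 (SD 2.61) for Col1a2, 9.10 (SD 1.11) for Col4a2, 9.03 (SD 1.81) for Col6a1 and 8.84 (SD 1.27) for Col4a1, and neighbours in this order differed by less than their SD. Col1a1 followed with 5.56 CPM per kb (SD 1.84) and Col6a2 with 5.32 (SD 1.12). Col22a1, whose protein sits at the junction of muscle and tendon, came next with 3.34 CPM per kb (SD 0.378). At the other end, 5 genes did not pass edgeR's filter on low counts. These were Col2a1 (137 counts over the 21 libraries) and Col9a2 (116 counts), both chains of cartilage, Col6a5 (88 counts), Col6a4 (21 counts) and Col10a1 (8 counts), the chain of hypertrophic cartilage. Of 6 markers of cartilage and bone, Matn1 had no count in any library and Acan reached at most 0.148 CPM, while Sox9 was at 0.879 to 2.78 CPM and Alpl at 7.61 to 13.9 CPM, which other tissues also express. The other 39 genes, 10 fibrillar, 8 of the basement membrane and 21 others, were tested among 16129 genes.

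**Figure D1:**
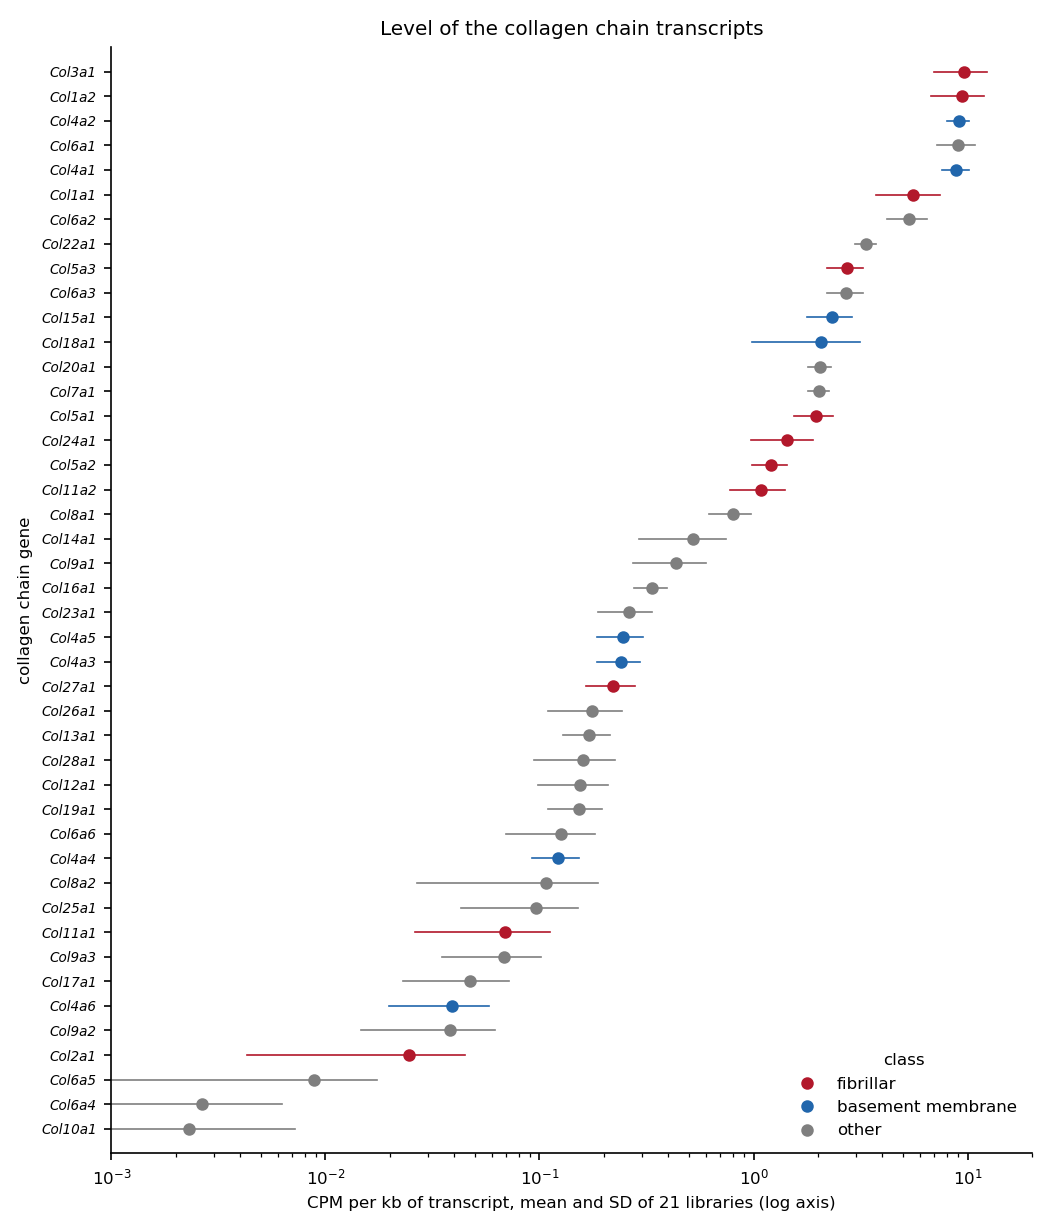
Level of the 44 collagen chain transcripts in CPM per kb of transcript on a log axis, with points for the mean and bars for the SD of the 21 libraries, coloured by class. Levels run from 0.00232 for Col10a1 to 9.67 for Col3a1, and all 3 classes are present among the first 5 genes.

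The ratio between chains of the same molecule was described for each library. Type I collagen contains more alpha 1 than alpha 2 chains. The transcript ratio per kb of Col1a1 to Col1a2 had a mean of 0.587 over the 21 libraries and a CV of 8.43%. The means of such ratios depend on the length used. The canonical transcripts hold 5930 bases for Col1a1 and 5359 for Col1a2, and all exons of the genes 6567 and 12650. No conclusion on the proportion of the chains is drawn from the ratio. The ratio of Col4a1 to Col4a2 had a mean of 0.970 and a CV of 5.47%, and that of Col6a1 to Col6a2 a mean of 1.70 and a CV of 7.03%. The ratio of Col3a1 to Col1a1, chains of different molecules, had a mean of 1.82 and a CV of 22.4%. The ratio of Col5a2 to Col5a1, chains of the same molecule, had a CV of 15.4%, about that of Col3a1 to Col5a2, chains of different molecules, with 15.6%. The low-count pairs of type IV varied more, with a CV of 31.7% for Col4a3 to Col4a4 and 47.0% for Col4a5 to Col4a6. These ratios are descriptions, since both chains come from the same library. Col4a1 and Col4a2 lie head to head on chromosome 8 and share exon bases on opposite strands, and the strand setting of the counting is not given in the sources used here, so reads in those bases cannot be assigned to one of the genes. Col6a1 and Col6a2 lie in tandem on chromosome 10 with 83890 bases between them. Col3a1 and Col5a2 lie tail to tail on chromosome 1.

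Active mice had the highest median share of counts on the fibrillar genes, with overlap between mice, and the shares were not tested. Their share had a lowest, median and highest value of 0.0112%, 0.0189% and 0.0235% in the Inactive group, 0.0193%, 0.0215% and 0.0329% in the Active group, and 0.0152%, 0.0168% and 0.0197% in the Activity Reduction group. The basement membrane genes had medians of 0.0148%, 0.0167% and 0.0137% in the same order, and the other collagen genes had 0.0165%, 0.0183% and 0.0163%. Inactive replicate 5 was the lowest of its group in all 3 classes, and Active replicate 3 was the highest of its group in all 3. Over the 39 tested genes, Inactive replicate 5 had the lowest level of its group for 21 and Active replicate 3 the highest of its group for 14.

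**Figure D2:**
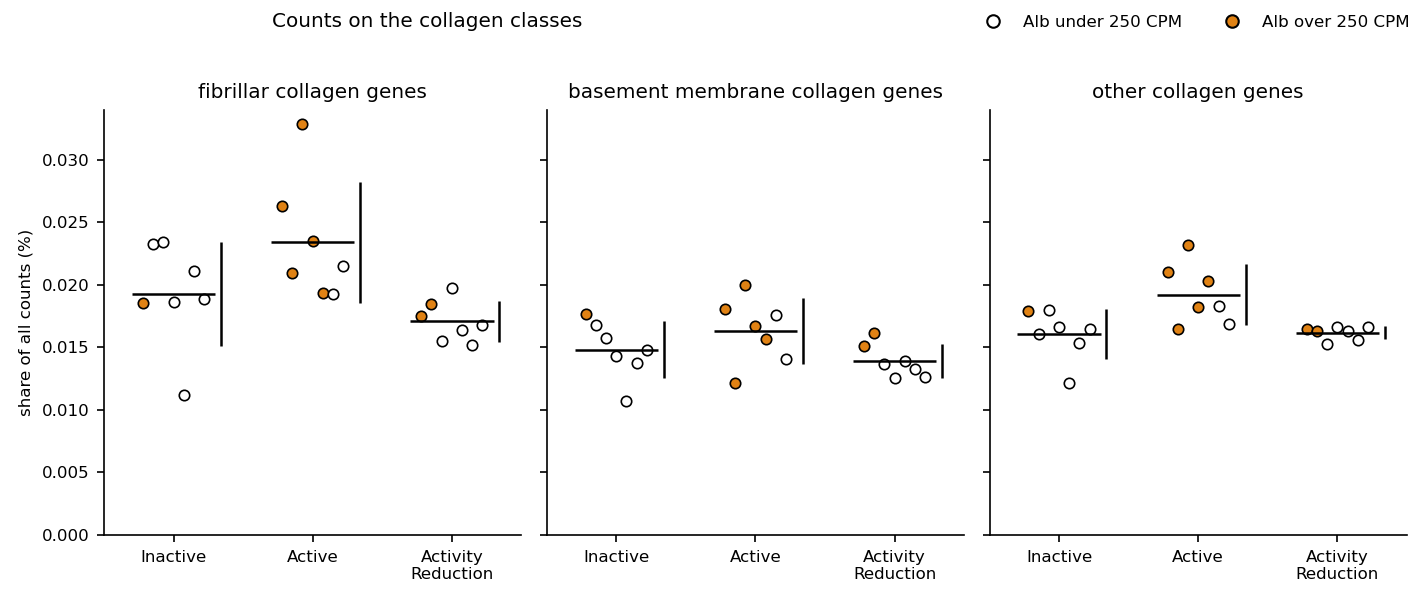
Share of all counts (%) on the fibrillar, basement membrane and other collagen genes in each mouse of the 3 groups, with lines for the mean and bars for the SD, n = 7, and filled points for the 8 libraries with Alb over 250 CPM. The Activity Reduction mice lie between 0.0152% and 0.0197% for the fibrillar genes, the Active mice between 0.0193% and 0.0329%, and the low Inactive point is replicate 5.

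The comparison of Active with Inactive mice asks what 6 weeks of training did, and it found 0 differentially expressed collagen genes by edgeR's quasi-likelihood test with a Benjamini-Hochberg adjusted p-value under 0.05 and a log2 fold change over 0.25 in either direction. The share of all tested genes that passed was 0.0%. At an unadjusted p-value under 0.05, 10 of the 39 collagen genes had a higher level in the Active group, against 6.18% of all tested genes, and 0 had a lower level, against 4.69%. The log2 fold change was above 0 for 31 of the 39 genes, and its median was 0.15, beside 0.01 over all tested genes. By class, 4 of 10 fibrillar genes, 1 of 8 basement membrane genes and 5 of 21 other genes were among the 10, and the class medians were 0.24, 0.11 and 0.14. Without Active replicate 3 the fibrillar median was 0.11 and the basement membrane median 0.06, and without Inactive replicate 5 the basement membrane median was 0.02. For 0 of the 39 genes did the groups not overlap, which held for 0.223% of all tested genes. The test was run on bulk RNA, in which fewer cells of a type and less RNA per cell cannot be told apart.

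Between the Activity Reduction and Active groups, which differ in the last 2 weeks, 0 collagen genes were differentially expressed with edgeR, as for 0.0% of all tested genes. At an unadjusted p-value under 0.05, 13 of the 39 collagen genes had a lower level in the Activity Reduction group, against 6.44% of all tested genes, and 0 had a higher level, against 6.89%. The 13 were 6 of 10 fibrillar genes, 0 of 8 basement membrane genes and 7 of 21 other genes. The log2 fold change was below 0 for 32 of the 39 genes, among them all 10 fibrillar and all 8 basement membrane genes, and its median was −0.24, beside −0.00065 over all tested genes. The class medians were −0.38, −0.16 and −0.22, and without Active replicate 3 the fibrillar median was −0.24. Groups that did not overlap were found for 0 of the 39 genes and for 0.285% of all tested genes. The Active mice are in this comparison and in the one before it, so the directions of the 2 comparisons are not independent of each other.

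Between the Activity Reduction and Inactive groups, 0 collagen genes were differentially expressed with edgeR, and 0.0124% of all tested genes were. At an unadjusted p-value under 0.05, 1 collagen gene (Col22a1) had a higher level, against 4.19% of all tested genes, and 1 (Col24a1) a lower level, against 3.54%. The median log2 fold change was −0.02 over the 39 genes, with class medians of −0.13, −0.06 and 0.03. With 1 library left out the medians ranged from −0.22 to −0.08, from −0.09 to −0.02 and, with either sign, from −0.05 to 0.03. Groups that did not overlap were found for 0 of the 39 genes and for 0.112% of all tested genes.

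**Figure D3:**
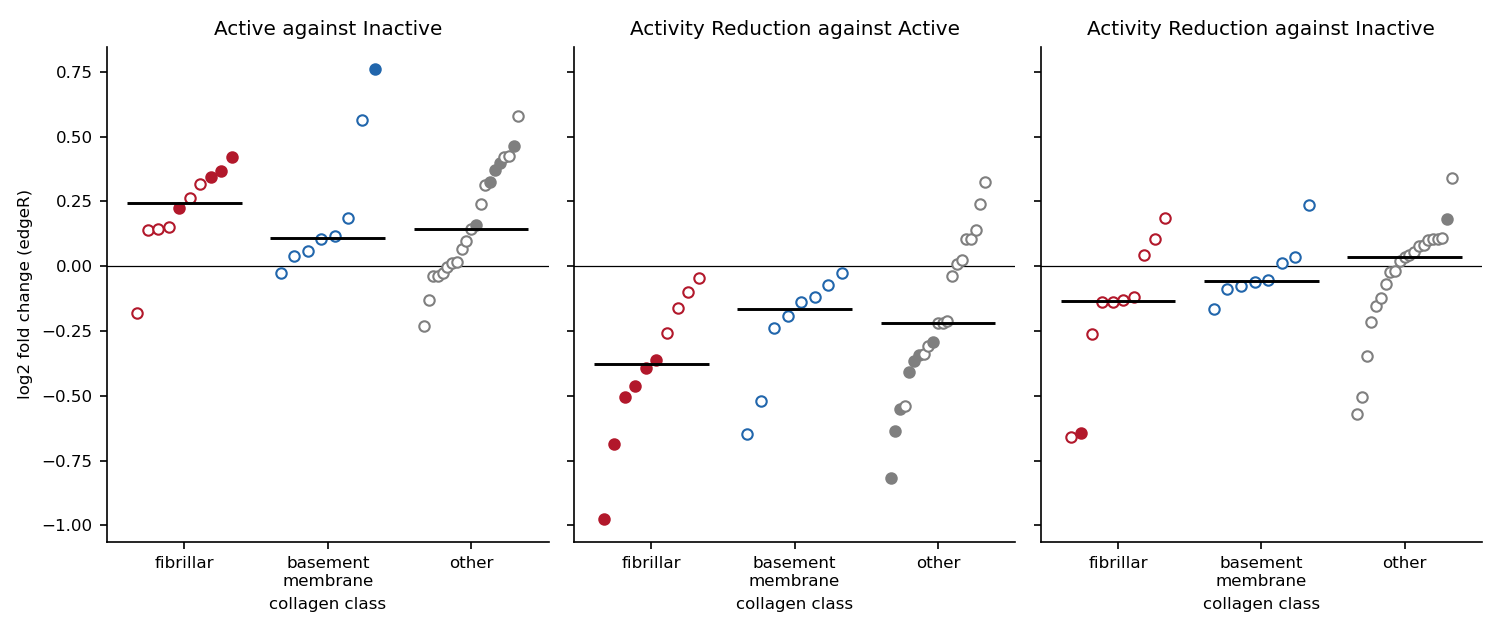
Log2 fold change (edgeR) of the 39 tested collagen genes by class in the 3 comparisons, 1 point per gene, filled where the unadjusted p-value was under 0.05, with a line for the class median. The fibrillar median is 0.24 for Active against Inactive, −0.38 for Activity Reduction against Active and −0.13 for Activity Reduction against Inactive.

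Among the fibrillar genes, Col1a1, the alpha 1 chain of type I collagen, had a lowest, median and highest level of 12.8, 29.3 and 43.4 CPM in the Inactive group, 25.5, 46.5 and 54.5 CPM in the Active group and 22.9, 26.2 and 29.1 CPM in the Activity Reduction group. Of the 7 Active mice, 6 were above the highest Activity Reduction mouse and 4 above the highest Inactive mouse. The log2 fold change was −0.68 (SE 0.20) from Active to Activity Reduction, with an adjusted p-value of 0.154 in edgeR's test, and 0.42 (SE 0.20) from Inactive to Active, with an adjusted p-value of 0.449. In Col1a1 the groups also differed in how far their mice lay apart. The CV of Col1a1 between mice was 36.3% in the Inactive, 25.4% in the Active and 8.95% in the Activity Reduction group, and the spread was not tested. The lowest Inactive value was that of replicate 5. Over the 39 tested genes, the Activity Reduction CV was below the Active CV for 24 and below the Inactive CV for 25. For Col1a2, the alpha 2 chain, the levels were 22.1, 42.4 and 64.6 CPM, then 39.5, 63.6 and 80.2 CPM, then 36.5, 45.0 and 47.5 CPM. Again more Active mice were high, with 5 of 7 above the highest Activity Reduction mouse, and the groups overlapped. Its log2 fold change was −0.51 (SE 0.18) from Active to Activity Reduction (adjusted p = 0.219, edgeR) and 0.37 (SE 0.18) from Inactive to Active (adjusted p = 0.458, edgeR).

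Col3a1, whose product forms thin fibrils together with type I, had levels of 24.8, 54.0 and 64.7 CPM in the Inactive group, 42.6, 55.2 and 104 CPM in the Active group and 39.7, 44.2 and 60.7 CPM in the Activity Reduction group. The high value was Active replicate 3 and the low value Inactive replicate 5, and only 2 of 7 Active mice were above the highest Activity Reduction mouse. Its log2 fold change from Active to Activity Reduction was −0.39 (SE 0.18), with an adjusted p-value of 0.346 in edgeR's test, and it was −0.22 without Active replicate 3. The chains of type V, which start fibrils and limit their width, each had their highest median in the Active group. Col5a2 had medians of 9.02, 9.91 and 8.49 CPM in the Inactive, Active and Activity Reduction groups. Of the 7 Active mice, 6 were above the highest Activity Reduction mouse. Its log2 fold change was −0.36 (SE 0.11, adjusted p = 0.158, edgeR) from Active to Activity Reduction. From Inactive to Active it ranged from 0.11 to 0.27 over the fits with a library left out. Col5a1 had medians of 15.6, 17.3 and 16.5 CPM, with a log2 fold change of 0.35 (SE 0.14, adjusted p = 0.380, edgeR) from Inactive to Active and −0.16 (SE 0.13) from Active to Activity Reduction. Col5a3 had medians of 16.5, 18.4 and 16.6 CPM and log2 fold changes of 0.14 (SE 0.14) and −0.10 (SE 0.14). Whether the type V chains differ from each other was not tested.

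Col24a1, a fibrillar chain with a shorter and interrupted helix, had another order of the group medians over the 21 libraries. Its lowest, median and highest levels were 6.89, 11.7 and 17.8 CPM in the Inactive group, 8.16, 10.3 and 16.8 CPM in the Active group and 5.85, 7.55 and 9.47 CPM in the Activity Reduction group. All 7 Activity Reduction mice were below the Inactive median and 2 were below the lowest Inactive mouse. The log2 fold change from Inactive to Activity Reduction was −0.64 (SE 0.18), with an adjusted p-value of 0.344 in edgeR's test, and from Active to Activity Reduction it was −0.46 (SE 0.18, adjusted p = 0.278, edgeR). From Inactive to Active it was −0.18 (SE 0.18), and this direction did not hold with the Alb division. With the division in the model, all 10 fibrillar genes, Col24a1 included, had a log2 fold change above 0 from Inactive to Active. Within the 13 libraries with Alb under 250 CPM, the mean of Col24a1 was 13.1 CPM in 6 Inactive and 13.8 CPM in 2 Active mice. Col11a1, a minor fibrillar chain, was near the limit of the filter, with medians of 0.492, 0.634 and 0.280 CPM, and its log2 fold change from Active to Activity Reduction was −0.98 (SE 0.43, adjusted p = 0.333, edgeR).

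**Figure D4:**
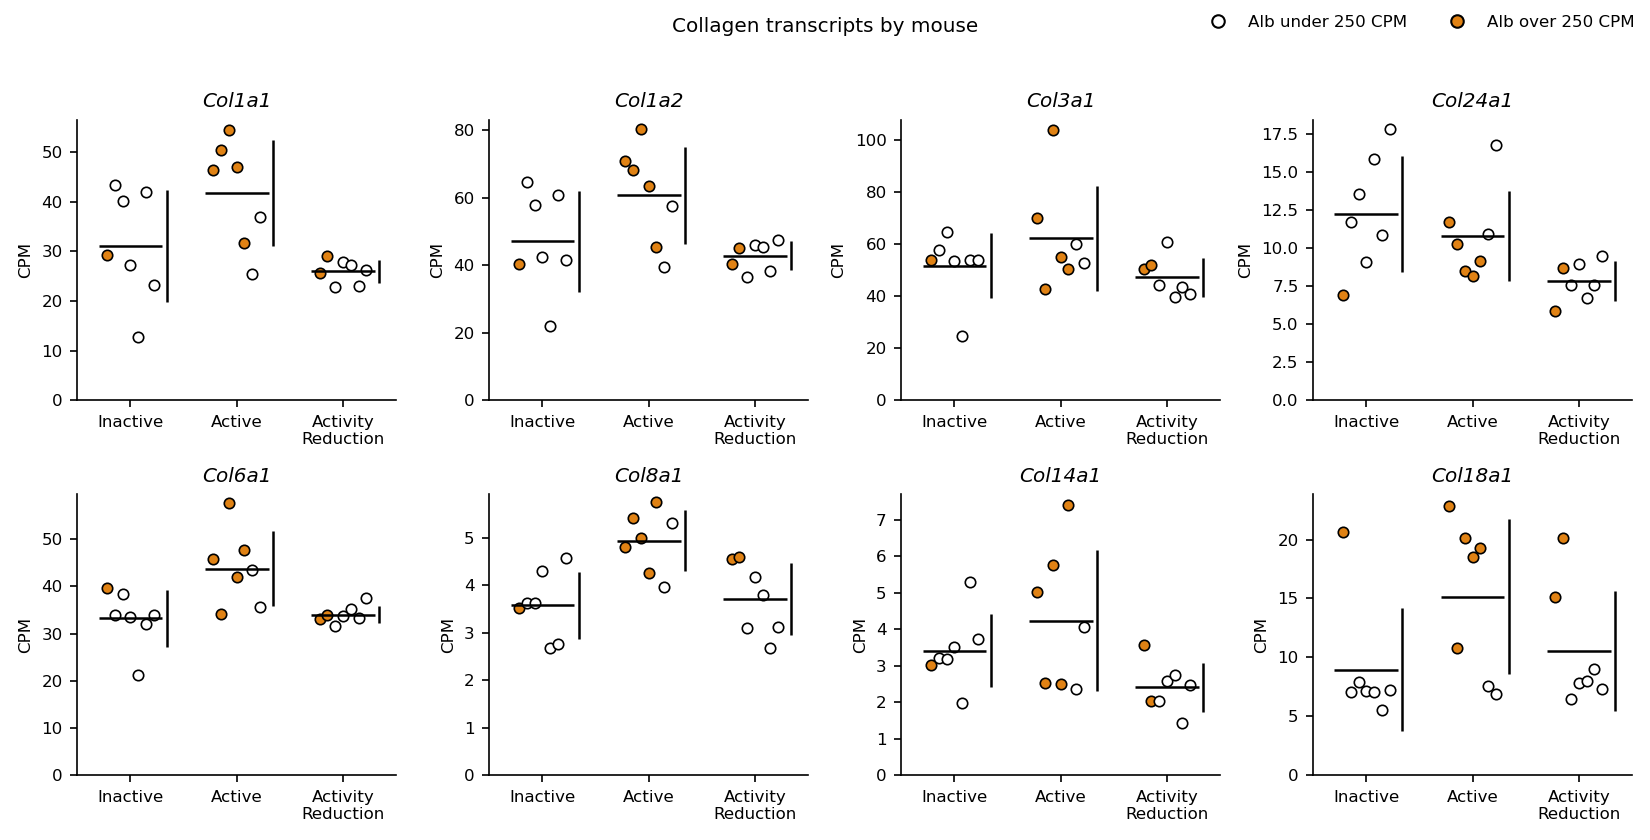
CPM of 8 collagen transcripts in each mouse of the 3 groups, with lines for the mean and bars for the SD, n = 7, and filled points for the 8 libraries with Alb over 250 CPM. The Activity Reduction mice lie between 22.9 and 29.1 CPM for Col1a1 and between 5.85 and 9.47 CPM for Col24a1, and for Col18a1 all filled points lie above all open points.

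Of the basement membrane chains, the abundant pair of type IV differed little between groups. Col4a1, the alpha 1 chain of type IV, had levels of 40.4, 59.7 and 68.5 CPM in the Inactive group, 48.6, 61.8 and 75.7 CPM in the Active group and 47.6, 54.4 and 60.7 CPM in the Activity Reduction group. Col4a2, its partner chain, had 45.7, 61.9 and 69.8 CPM, then 49.9, 64.7 and 74.2 CPM, then 53.0, 59.0 and 69.5 CPM. For both genes the ranges of the groups lay largely over each other. The log2 fold changes of Col4a1 were 0.11 (SE 0.10) from Inactive to Active and −0.19 (SE 0.10) from Active to Activity Reduction, and those of Col4a2 were 0.06 (SE 0.09) and −0.12 (SE 0.09).

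The minor type IV chains, which form the networks of specialised basement membranes, had medians between 0.160 and 2.16 CPM. Col4a3, Col4a4 and Col4a5 had log2 fold changes between −0.16 and 0.11 in the 3 comparisons. Col4a6 had fewer counts, with medians of 0.207, 0.326 and 0.160 CPM, and log2 fold changes of 0.56 (SE 0.35) from Inactive to Active and −0.65 (SE 0.35) from Active to Activity Reduction. Col15a1, the chain that bridges the basement membrane to fibrils, had medians of 13.3, 14.3 and 12.3 CPM and log2 fold changes of 0.19 (SE 0.16) and −0.24 (SE 0.16).

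Col18a1, whose C-terminal fragment is endostatin, was the 1 basement membrane gene among the 10 with an unadjusted p-value under 0.05 between the Active and Inactive groups, with a log2 fold change of 0.76 (SE 0.33, adjusted p = 0.416, edgeR). Its levels were 5.51, 7.16 and 20.7 CPM in the Inactive group, 6.86, 18.5 and 22.9 CPM in the Active group and 6.44, 7.998 and 20.1 CPM in the Activity Reduction group. Its levels followed the Alb division. The 13 libraries with Alb under 250 CPM held 5.51 to 9.03 CPM and the other 8 held 10.8 to 22.9 CPM, and the 2 sets did not overlap. In the edgeR model with group and division, Col18a1 was higher in the 8 libraries by 1.34 on the log2 scale, with an adjusted p-value of 3.25e-09, and it was the 1 collagen gene of 39 that passed both thresholds, against 4.2% of all tested genes. With the division in the model, its log2 fold change from Inactive to Active was 0.01 (SE 0.14), and within the 13 libraries it was 0.04 (SE 0.13). Liver makes Col18a1 transcripts too, and the part of liver RNA in these levels was not tested. Besides Col18a1, Col6a3 was higher in the 8 libraries at an unadjusted p-value under 0.05 (against 7.8% of all tested genes for higher levels), and Col24a1 and Col7a1 were lower (against 4.82%).

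Among the other collagens, the 3 main chains of type VI had their highest median in the Active group. Col6a1 had levels of 21.1, 33.9 and 39.7 CPM in the Inactive group, 34.2, 43.4 and 57.7 CPM in the Active group and 31.6, 33.6 and 37.5 CPM in the Activity Reduction group. Of the 7 Active mice, 5 were above the highest mouse of each of the other groups. Its log2 fold change was 0.40 (SE 0.11) from Inactive to Active and −0.36 (SE 0.11) from Active to Activity Reduction, with adjusted p-values of 0.225 and 0.171 in edgeR's test, and it was 0.03 (SE 0.11) from Inactive to Activity Reduction. Col6a2 had medians of 28.3, 34.9 and 31.4 CPM and log2 fold changes of 0.37 (SE 0.13) and −0.29 (SE 0.13). Col6a3, the large alpha 3 chain, had medians of 21.9, 28.8 and 22.2 CPM and log2 fold changes of 0.32 (SE 0.11) and −0.34 (SE 0.11). Col6a6, a chain that can take the place of alpha 3, had medians of 1.06, 1.34 and 0.902 CPM and a log2 fold change of −0.63 (SE 0.30) from Active to Activity Reduction. It was named after its value was seen.

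Col8a1, a network-forming short chain of vessel walls, had levels of 2.67, 3.62 and 4.57 CPM in the Inactive group, 3.97, 4.99 and 5.76 CPM in the Active group and 2.68, 3.80 and 4.59 CPM in the Activity Reduction group. All 7 Active mice were above the median of each of the other groups, and 5 were above the highest mouse of each. Its log2 fold change was 0.46 (SE 0.14, adjusted p = 0.247, edgeR) from Inactive to Active and −0.41 (SE 0.14, adjusted p = 0.197, edgeR) from Active to Activity Reduction. Col14a1, a chain that sits on the surface of fibrils, had levels of 1.97, 3.21 and 5.28 CPM, then 2.37, 4.07 and 7.41 CPM, then 1.43, 2.46 and 3.57 CPM. Its log2 fold change from Active to Activity Reduction was −0.82 (SE 0.25), with an adjusted p-value of 0.173 in edgeR's test, and the groups overlapped. Col12a1, a related chain on fibrils, had medians of 1.73, 2.38 and 1.52 CPM and a log2 fold change of −0.55 (SE 0.24) between the same groups.

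Col22a1 was the 1 collagen gene with a higher level in both trained groups than in the Inactive group at an unadjusted p-value under 0.05. Its levels were 24.0, 26.7 and 34.0 CPM in the Inactive group, 24.6, 31.3 and 34.9 CPM in the Active group and 27.9, 31.7 and 33.2 CPM in the Activity Reduction group. All 7 Activity Reduction mice were above the Inactive median, and the highest Inactive mouse was above all of them. The log2 fold change was 0.16 (SE 0.08, adjusted p = 0.454, edgeR) in the Active and 0.18 (SE 0.08, adjusted p = 0.575, edgeR) in the Activity Reduction group, both below the threshold of 0.25. With the Alb division in the model the value for the Active group was 0.12 (SE 0.09) with an unadjusted p-value over 0.05, and within the 13 libraries with Alb under 250 CPM it was −0.08. Col7a1, the chain of anchoring fibrils, had medians of 17.8, 18.2 and 20.6 CPM and log2 fold changes between −0.0045 and 0.10. The remaining other collagens had log2 fold changes between −0.57 and 0.58 and unadjusted p-values over 0.05 in each comparison.

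With the Alb division in the model, 5 of 39 collagen genes had a higher level in the Active than in the Inactive group at an unadjusted p-value under 0.05 (Col6a1, Col6a2, Col8a1, Col4a6 and Col17a1), against 4.24% of all tested genes, and 0 had a lower level, against 4.27%. Col1a1 had a log2 fold change of 0.27 (SE 0.23) and Col1a2 of 0.30 (SE 0.21) in this model. From Active to Activity Reduction, 11 had a lower level, against 5.18%, and 0 a higher level, against 5.54%. Col24a1 had the smallest unadjusted p-value of these, with a log2 fold change of −0.64 (SE 0.16, adjusted p = 0.145, edgeR). From Inactive to Activity Reduction, 2 had a lower level (Col24a1 and Col14a1), against 3.71%, and 1 (Col22a1) a higher level, against 4.54%.

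Within the 13 libraries with Alb under 250 CPM, where the Active group holds 2 mice, 42 collagen genes passed the filter. From Inactive to Active, 2 had an unadjusted p-value under 0.05 (Col6a2 and Col9a2, both higher), against 6.07% of all genes tested there. Col9a2 did not pass the filter over the 21 libraries and had at most 12 counts in a library. In these 13 it was at 0.2496 and 0.2504 CPM in the 2 Active mice. It was at 0.0329 to 0.121 CPM in the Inactive and 0.0632 to 0.256 CPM in the Activity Reduction mice. It passed with the Active mice, where it is high, so nothing is drawn from its direction. The median log2 fold change of the fibrillar genes was 0.01, with Col1a1 at −0.01 (SE 0.31) and Col1a2 at 0.01 (SE 0.27), while it was 0.09 for the basement membrane and 0.18 for the other genes. With unadjusted p-values over 0.05, Col6a1 had a log2 fold change of 0.30 (SE 0.15), Col5a1 of 0.32 (SE 0.17), Col8a1 of 0.37 (SE 0.21) and Col22a1 of −0.08 (SE 0.11). Among these libraries Col1a1 was at 25.5 and 36.9 CPM in the 2 Active mice and between 12.8 and 43.4 CPM in the 6 Inactive mice. From Active to Activity Reduction, 5 genes had an unadjusted p-value under 0.05, against 4.41%, of which Col24a1, Col28a1, Col5a2 and Col8a1 were lower and Col22a1 was higher. From Inactive to Activity Reduction, which rests on 6 and 5 mice, 4 genes did, against 7.89%, of which Col24a1, Col14a1 and Col6a5 were lower and Col22a1 was higher. Col6a5 did not pass the filter over the 21 libraries. Here it was at 0.0377 to 0.230 CPM in the Inactive and 0 to 0.0739 CPM in the Activity Reduction mice. It passed only with the Inactive mice, where it is high, so nothing is drawn from its direction. Col24a1 was at −0.71 (SE 0.18, adjusted p = 0.272, edgeR) on the log2 scale in this comparison.

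**Figure D5:**
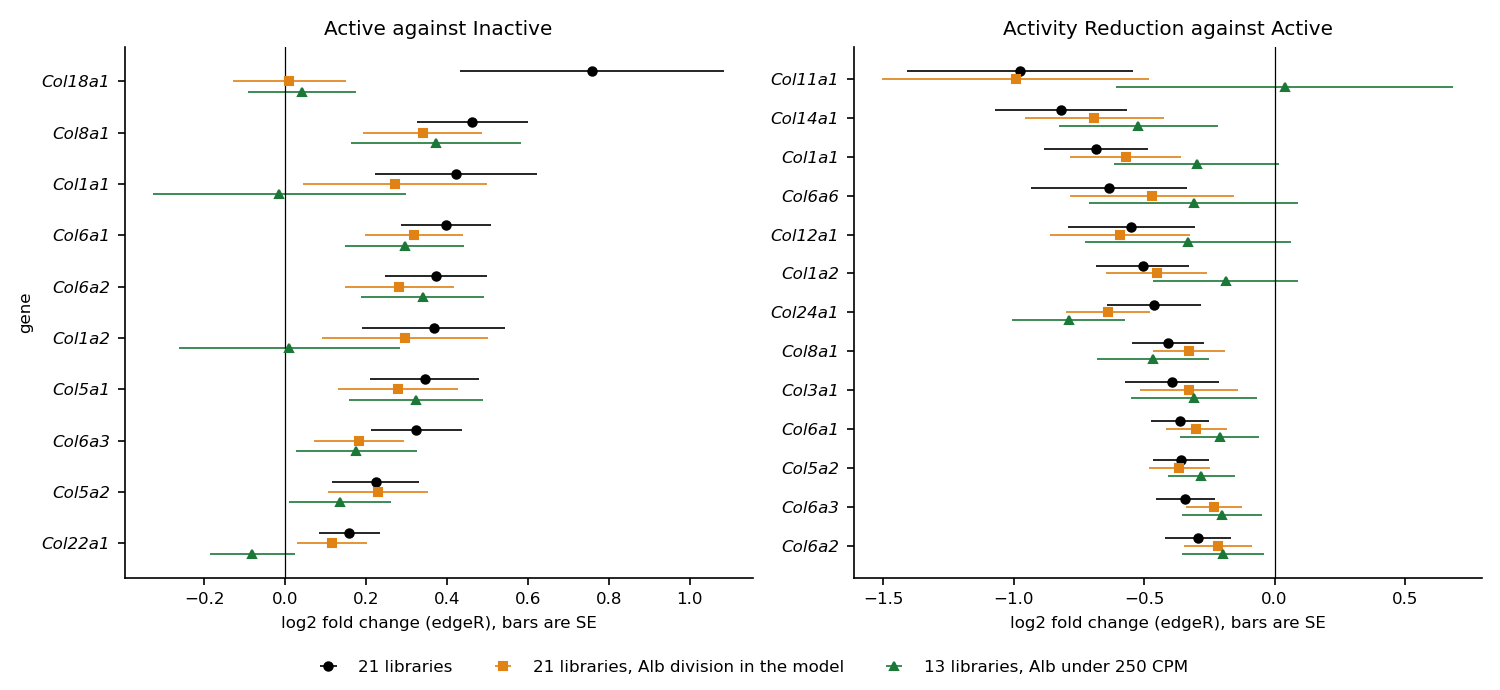
Log2 fold change (edgeR, bars are SE) of the collagen genes with an unadjusted p-value under 0.05, for Active against Inactive (10 genes) and Activity Reduction against Active (13 genes), from 21 libraries, from 21 libraries with the Alb division in the model, and from the 13 libraries with Alb under 250 CPM. Col18a1 moves from 0.76 to 0.01 and 0.04, and Col24a1 from −0.46 to −0.64 and −0.79.

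DESeq2, the tool that the authors used, called more collagen genes from the same counts at the same thresholds. Fitted on the 2 groups compared, it called Col8a1 between Active and Inactive (0.46 on the log2 scale, adjusted p = 0.0453, DESeq2), where 0.553% of all genes with an adjusted p-value were called. It called Col1a1 (adjusted p = 0.000493), Col1a2 (adjusted p = 0.0111) and Col6a1 (adjusted p = 0.0152), all lower, between Activity Reduction and Active, against 0.906% of all genes. It called Col24a1 (−0.65 on the log2 scale, adjusted p = 0.0325), lower, between Activity Reduction and Inactive, against 0.302%. Fitted on the 3 groups at once, DESeq2 called Col6a1 between Active and Inactive (adjusted p = 0.0442), against 0.424% of all genes, and Col14a1 between Activity Reduction and Active (adjusted p = 0.0464), against 0.869%. It called 0 collagen genes between Activity Reduction and Inactive, against 0.252%. At an unadjusted p-value under 0.05 in this fit, 1 of 44 collagen genes was higher and 2 were lower, beside 685 and 715 of 28675 genes.

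Genes that act on collagens were described from lists by role. Their counts at an unadjusted p-value under 0.05 are read beside the shares of all tested genes. These were 6.18% higher in the Active than in the Inactive group and 6.44% lower in the Activity Reduction than in the Active group. With the Alb division in the model they were 4.24% and 5.18%. In the opposite directions the shares were 4.69% and 6.89%, and 4.27% and 5.54% with the division. From Inactive to Activity Reduction, 4.19% of all tested genes were higher and 3.54% lower. The same shares apply to the marker lists below. Of 29 tested genes that process collagen chains, 3 had a higher level in the Active than in the Inactive group at an unadjusted p-value under 0.05 and 6 a lower level in the Activity Reduction than in the Active group, and with the Alb division 3 and 4 did, with 2 and 1 in the opposite directions. Pcolce, which enhances the removal of the C-terminal propeptide, was among both, with log2 fold changes of 0.32 (SE 0.08) and −0.33 (SE 0.08), as was Bmp1, the protease that removes it, with 0.31 (SE 0.10) and −0.23 (SE 0.10). Loxl2, an enzyme of collagen crosslinks, had 0.34 (SE 0.12) from Inactive to Active. From Inactive to Activity Reduction, P4ha1, a prolyl hydroxylase, was the 1 gene of the list, with −0.14 (SE 0.06). The median log2 fold changes of the list were 0.10 and −0.10 in the first 2 comparisons.

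Of 23 tested genes of the matrix that associates with collagens, 9 had a higher level in the Active than in the Inactive group and 15 a lower level in the Activity Reduction than in the Active group at an unadjusted p-value under 0.05, with medians of 0.23 and −0.32, and with the Alb division 6 and 12 did. Lama4, a laminin chain, had log2 fold changes of 0.44 (SE 0.10) and −0.37 (SE 0.10), and Bgn, the proteoglycan biglycan, had 0.46 (SE 0.12) and −0.38 (SE 0.12). Nid2, a linker of laminin and type IV collagen, had 0.30 (SE 0.12) and −0.42 (SE 0.12). From Inactive to Activity Reduction, 2 of the 23 had a lower level, Postn with −0.57 (SE 0.19) and Lamb2 with −0.08 (SE 0.03). Of 10 tested genes that degrade collagens or limit that, 2 had a higher level in the Active group (Mrc2, 0.29 with SE 0.10, and Timp2, 0.20 with SE 0.09) and 3 a lower level in the Activity Reduction than in the Active group (Mrc2, −0.37 with SE 0.11, Ctsk, −0.44 with SE 0.15, and Mmp2, −0.32 with SE 0.14), and Timp4 alone had a higher level in the Activity Reduction than in the Inactive group. With the Alb division 1 and 2 of this list did in the first 2 comparisons. Of 14 regulators of collagen genes, 5 had a higher and 1 a lower level in the Active than in the Inactive group, with Ccn2 at 0.49 (SE 0.18), and with the Alb division in the model 0 were higher and 0 lower in that comparison at an unadjusted p-value under 0.05. Between Activity Reduction and Active, 1 was higher (Smad7, 0.36 with SE 0.15) and 2 were lower (Fstl1 and Tgfbr2). Between Activity Reduction and Inactive, 2 were higher, Smad7 and Pdgfa. These lists are background to the collagen genes, and 0 of their genes passed edgeR's thresholds.

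Markers of the cells that make or surround collagen were summed over each list, and their part in the collagen values was not tested. The 10 fibroblast markers, none at 0, summed to 345 to 594 CPM in the Inactive, 448 to 746 CPM in the Active and 348 to 578 CPM in the Activity Reduction group. At an unadjusted p-value under 0.05, 4 of them were higher in the Active than in the Inactive group (median log2 fold change 0.26) and 8 were lower in the Activity Reduction than in the Active group (median −0.37), beside 6.18% and 6.44% of all tested genes, and with the Alb division 3 and 6 were. Dcn, Lum and Fbn1 were also in the matrix list. The 9 tendon markers summed to 15.6 to 87.1 CPM, 24.9 to 107 CPM and 29.5 to 48.5 CPM in the same order, with median log2 fold changes of 0.36 and −0.79. Of these, Kera was lower and Scx higher in the Activity Reduction than in the Active group at an unadjusted p-value under 0.05. Of 8 macrophage markers, 3 were higher in the Active group and 3 lower in the Activity Reduction than in the Active group, with medians of 0.36 and −0.40, and of 10 endothelial markers 3 and 3, with medians of 0.04 and −0.06. With the Alb division these counts were 2 and 4 for the macrophage and 1 and 2 for the endothelial markers.

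In the other marker lists few genes had an unadjusted p-value under 0.05. From Inactive to Activity Reduction they are read beside 4.19% of all tested genes higher and 3.54% lower. Of 8 tested pericyte and smooth muscle markers, Des alone did in the first 2 comparisons, with −0.10 (SE 0.05) and 0.15 (SE 0.05). Of 8 Schwann cell and 8 adipocyte markers, 0 did in these comparisons, and Sox10 of the Schwann list was higher in the Activity Reduction than in the Inactive group. Of 2 tested cartilage and bone markers, Sox9 was lower in the Activity Reduction than in the Inactive group. Of 8 markers of the muscle fibre, Myh4 and Mb were higher in the Active than in the Inactive group, and the median log2 fold change of the list was 0.01. Of the same list, Actn3 was higher in the Activity Reduction than in the Active group, with 0.11 (SE 0.05), and Acta1 was higher, with 0.13 (SE 0.05), and Myh7 lower, with −0.74 (SE 0.28), in the Activity Reduction than in the Inactive group. The 11 liver markers had a median log2 fold change of 1.22 from Inactive to Active and −0.92 from Active to Activity Reduction, with 0 of 11 at an unadjusted p-value under 0.05, and of −0.16 and 0.11 with the Alb division in the model.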

How the data were processed

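The paired-end reads were trimmed (fastp), aligned to GRCm39 (STAR) and assigned to genes (featureCounts) by the authors, who deposited raw counts per gene and library, without normalization. A deposited table named for normalized values held the same 857913 values and was not used. Versions, annotation and the strand setting are not given in the sources used here.

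Groups came from the labels. Mice are the replicates, 7 per group. Counts were tested with edgeR 4.0.16 (TMM, filterByExpr by group, quasi-likelihood F-test, Benjamini-Hochberg adjustment over all 16129 tested genes) in 1 model of the 21 libraries, and SEs were derived from its F statistic. Differential expression meant an adjusted p-value under 0.05 and a log2 fold change over 0.25 in either direction. DESeq2 1.42.0, other scaling, no filter, the 2 groups alone, the replicate number as a block, the Alb division as covariate, the 13 libraries with Alb under 250 CPM and leaving out each library were alternatives. The script was tested on simulated data with known changes.

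Levels are CPM with TMM scaling, and per kb of the canonical GENCODE vM39 transcript for comparisons between genes. All exons of a gene together can be longer, so levels per kb, their order and their ratios depend on this choice. A Gly-X-Y repeat was a codon GGN followed by 2 other codons. Genes named were the 12 collagen genes with the highest mean CPM, the type IV, XV and XVIII chains, up to 12 per comparison with the smallest unadjusted p-value under 0.05 in edgeR, those called by DESeq2 on 2 groups, and up to 3 per list. The members and lists were chosen with earlier results of these data known. Of 22 tested collagen genes that share exon bases with another gene, 5 share over 5% of the transcript with 1 gene. Col6a6, Col17a1, Col28a1, Col9a2 and Col6a5 were named after their values were seen. Depth was 38482455 to 59785132 counts per library, so genes with few counts, such as Col4a6 and Col11a1, have the widest errors. P-values test differences between groups against the spread between mice, and they do not test that spread.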

Additional observations from a re-analysis of the deposited data

Results flagged for a closer look

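In 9 of 84 groups of values (the 24 collagen genes named by the rule and the 4 shares of counts, each in 3 groups) 1 mouse lay far from the other 6 of its group by Dixon's ratio. Chance alone gives about 1 in 20 groups where values are normal and groups independent. The 84 are not independent, since the shares contain the genes, so the 9 cannot be judged by that rate. Inactive replicate 5 accounted for 4 of the 9, which overlap, since its shares of counts contain Col3a1 and, for all collagen genes, Col6a1. It had 24.84 CPM of Col3a1, where the others had 53.45 to 64.69 CPM, and 21.12 CPM of Col6a1, where the others had 31.97 to 39.73 CPM. Its share of counts was 0.01118% on the fibrillar genes, where the others had 0.01857% to 0.02346%, and 0.03403% on all collagen genes, where the others had 0.04949% to 0.05722%. Active replicate 3 had 22.69 CPM of Col15a1 (others 11.2 to 15.59 CPM), and Active replicate 7 had 16.75 CPM of Col24a1 (others 8.165 to 11.68 CPM). Inactive replicate 3 had 34.04 CPM of Col22a1 (others 24.02 to 27.25 CPM), and Activity Reduction replicate 2 had 69.55 CPM of Col4a2 (others 53.01 to 59.67 CPM). Inactive replicate 1, the 1 Inactive library with Alb over 250 CPM, had 20.66 CPM of Col18a1 (others 5.512 to 7.903 CPM).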

How the results depend on the processing

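The 0 collagen genes called by edgeR stayed 0 with each library left out and in all edgeR alternatives, and DESeq2 called 1, 1 and 3 on 2 groups (Active against Inactive, Activity Reduction against Inactive, Activity Reduction against Active) and 1, 0 and 1 on 3 groups. The 10 genes with an unadjusted p-value under 0.05 for Active against Inactive became 6 with edgeR on the 2 groups, 6 with DESeq2 on them, 5 with the Alb covariate and 2 in the 13 libraries with Alb under 250 CPM (3 and 1 of these are among the 10 for the last 2), and 4 of the 10 had p-values between 0.0456 and 0.0497 in edgeR's test. With edgeR on the 2 groups, 6 of 38 collagen genes were higher and 0 lower, beside 986 and 873 of all 15562 genes. With DESeq2 on them, 6 of 44 were higher and 0 lower, beside 1126 and 1036 of 27684. For fits with 1 library left out, here and below, the share of all tested genes was not taken. Leaving out 1 library gave 4 to 11, with 4 without Active replicate 3, 5 without Active replicate 1 or Inactive replicates 4 or 5, and 6 without Active replicate 4, Inactive replicates 1 or 7, or Activity Reduction replicates 1, 3, 4, 6 or 7. The 2 genes for Activity Reduction against Inactive became 4 in the 13 libraries, 4 without Inactive replicate 5, and 1 without Inactive replicates 2 or 4 or Activity Reduction replicates 4 or 6. In the 13 libraries, Col9a2 is counted for Active against Inactive and Col6a5 for Activity Reduction against Inactive. Neither passed the filter over the 21 libraries, and nothing is drawn from the direction of either. The 13 genes for Activity Reduction against Active became 11 with the Alb covariate, 9 of them among the 13, 5 in the 13 libraries, 3 of them among the 13, and 8 to 14 with 1 library left out, with 8 without Active replicate 1. Of the 24 values of named genes with an unadjusted p-value under 0.05, 3 reversed, all in the 13 libraries. These were Col1a1 at −0.0142 and Col22a1 at −0.0809 for Active against Inactive and Col11a1 at 0.0385 for Activity Reduction against Active. The fit on the 13 libraries holds fewer mice and none of the libraries with Alb over 250 CPM, and these differences cannot be told apart. Values with an unadjusted p-value over 0.05, such as Col24a1 for Active against Inactive, were not counted here. The cause was not tested for the reversals or for the other changes. The fibrillar median for Active against Inactive was 0.0104 in the 13 libraries and 0.1099 without Active replicate 3.

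With the replicate number as a block (a replicate block), 9 collagen genes were higher for Active against Inactive at an unadjusted p-value under 0.05 in edgeR's test. At the same p-value, 1 was higher and 1 lower for Activity Reduction against Inactive, and 11 were lower for Activity Reduction against Active. In the same order and at that p-value, 1307, 683 and 1082 of all 16129 tested genes were higher and 721, 547 and 1266 lower. Of 21 same-numbered pairs, 7 correlated over 0.1 and 6 under −0.1, and 3 libraries correlated best with one of their own number. The 3 pairs of replicate 1 were at 0.29, 0.47 and 0.33, and these libraries all had Alb over 250 CPM. Such correlations cannot show whether the design paired the mice.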
